A study of Mus musculus with 4 samples.

Results

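The genes described here are 10 of the 30360 genes in the deposited table: the peptide hormone genes Gcg, Pyy, Insl5, Cck, Ghrl, Nts and Sct, the serotonin enzyme gene Tph1, and the chromogranin genes Chga and Chgb. They were chosen by gene symbol, and each symbol matched 1 row. RNA was counted cell by cell with a droplet method (10x Genomics Chromium) in organoids, small epithelial structures that mouse colon crypts form in a gel. The donors were wildtype mice or Tnfr2-/- mice, which lack TNF receptor 2 in every cell through the B6.129S2-Tnfrsf1b tm1Mwm allele on a C57BL/6 background, and were 16 weeks old per the labels, while the methods give a younger age for the mice behind the colon cultures. Each genotype was studied untreated and with TNF, and each of these 4 groups has 1 library, with no statement of how many mice it came from. TNF, a cytokine of gut inflammation, was given at 20 ng/ml from day 1 to day 6 of passage 5, all cultures were taken on day 7, and dead cells were depleted before loading. With 1 library a group, no test was possible, and intervals below are 95% exact Poisson or Clopper-Pearson intervals that cover counting error only.

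Enteroendocrine cells are the hormone cells of the gut epithelium. They pack peptides and amines into granules built with chromogranins and release them when they sense nutrients, microbial products or stretch. In the colon the best known kinds are L cells, which make glucagon-like peptides from proglucagon together with peptide YY and, in the distal colon, insulin-like peptide 5, and enterochromaffin cells, which make most of the serotonin of the body. Cells that express neurogenin 3, encoded by Neurog3, are their early precursors. These are known facts and not results of these data.

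In GENCODE M21 on GRCm38, the build that the submitters name as mm10, the 10 genes are protein coding. Gcg is at chr2:62474530-62483650, Pyy at chr11:102106676-102107832, Insl5 at chr4:103017872-103026842, Cck at chr9:121489824-121495694 and Ghrl at chr6:113716119-113719880, all on the minus strand. Nts is at chr10:102481756-102490486, Sct at chr7:141278330-141279133 and Tph1 at chr7:46644641-46672537 on the minus strand, while Chga is at chr12:102554969-102565028 and Chgb at chr2:132781278-132795079 on the plus strand. The promoters of 4 members are shown as examples that hold a match to a motif searched, chosen after the search, as the 250 bases before the RefSeq start site on GRCm38.p6, 5′ to 3′ on the strand of the gene. The windows are chr2:62483654-62483903 for Gcg, chr11:102107833-102108082 for Pyy, chr9:121495695-121495944 for Cck and chr2:132781392-132781641 for Chgb. Capitals mark matches on either strand to CAGATG, the E-box that NeuroD binds in the insulin gene, to an NF-kB motif (GGGA, any 4 bases, then CC), to the cAMP response element TGACGTCA, or to the AP-1 motif TGANTCA.
Gcg: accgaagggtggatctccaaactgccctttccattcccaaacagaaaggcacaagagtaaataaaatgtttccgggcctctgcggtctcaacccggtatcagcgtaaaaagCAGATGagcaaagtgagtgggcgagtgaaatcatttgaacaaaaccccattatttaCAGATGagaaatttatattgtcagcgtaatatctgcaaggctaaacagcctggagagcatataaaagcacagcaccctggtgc
Pyy: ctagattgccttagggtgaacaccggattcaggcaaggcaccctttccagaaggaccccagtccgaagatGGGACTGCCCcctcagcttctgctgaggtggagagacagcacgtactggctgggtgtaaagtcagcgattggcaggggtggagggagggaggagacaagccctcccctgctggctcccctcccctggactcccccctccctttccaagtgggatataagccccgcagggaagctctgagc
Cck: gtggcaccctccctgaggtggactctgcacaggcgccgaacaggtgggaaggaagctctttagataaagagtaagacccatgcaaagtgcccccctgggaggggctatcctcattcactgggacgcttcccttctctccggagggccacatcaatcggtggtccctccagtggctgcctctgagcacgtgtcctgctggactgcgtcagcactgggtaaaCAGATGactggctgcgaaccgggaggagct
Chgb: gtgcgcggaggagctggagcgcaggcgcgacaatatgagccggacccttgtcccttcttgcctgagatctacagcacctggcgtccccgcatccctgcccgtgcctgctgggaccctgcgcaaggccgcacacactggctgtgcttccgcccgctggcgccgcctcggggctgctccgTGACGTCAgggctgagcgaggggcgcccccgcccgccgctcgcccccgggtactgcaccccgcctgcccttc
No match in these windows overlaps another. The E-box letters were in the windows of Gcg, Insl5, Cck and Sct, and in 14.4% of 32851 windows of the same length. The match in Cck begins 30 bases before the start site, and those in Gcg begin 139 and 83 bases before it. The NF-kB letters were in the windows of Pyy and Nts (17.6% of all windows), those of AP-1 in windows of Ghrl and Nts (6.75%), and the cAMP response element in the window of Chgb, 72 bases before the start (1.55%). A match is a description of the letters and not of binding.

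The deposited table held 6155 cells, of which 1128, 1163, 1023 and 858 were in the 7 epithelial classes and 1430, 306, 90 and 122 in the 4 mesenchymal classes, in an order kept throughout: wildtype untreated, wildtype TNF, then Tnfr2-/- untreated, then Tnfr2-/- TNF. The libraries held between 44547639 and 87228093 unique molecular identifiers (UMIs), 1 for each counted transcript molecule, and the barcodes of 3 cells occurred in more than 1 library, none of them in the Enteroendocrine class. Tnfrsf1b, the targeted gene, was at 9.76 and 14.0 counts per 1000000 UMIs (CPM) over all cells of the wildtype libraries and at 2.05 and 7.59 in the Tnfr2-/- libraries, lower in each treatment but not absent. In the Enteroendocrine class it had 1, 5, 0 and 5 UMIs, or 1.52, 5.75, 0 and 10.3 CPM, and was not lower in Tnfr2-/- with TNF. Since it is not stated which part of the gene the counted reads came from, this is no check of the labels.

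The Enteroendocrine class held 109 cells. They numbered 33, 31, 18 and 27, or 2.93%, 2.67%, 1.76% and 3.15% of the epithelial cells, with intervals of 2.02% to 4.08%, 1.82% to 3.76%, 1.05% to 2.77% and 2.08% to 4.55%. The Tnfr2-/- untreated library had the lowest share, and the 4 intervals overlap. The median cell of the class held 16386, 26763, 23948 and 16407 UMIs. Each of the 109 cells carried at least 4 of 10 fixed markers of these cells (Neurod1, Insm1, Nkx2-2, Scg2, Scg3, Scgn, Pcsk1n, Cryba2, St18 and Snap25), which include no member. The summed level of these markers was 4228 to 5304 CPM in the class, 4.37 to 11.9 CPM in the other epithelial classes and 1.84 to 9.04 CPM in mesenchyme, and the label matched its markers. Of 10 mesenchymal markers, 1, 4, 8 and 7 were at 0 in the class, and their sum ranged from 18.5 to 267 CPM, against 13348 to 17701 CPM in mesenchyme. Of 8 absorptive markers, 2 or 3 were at 0 in each library, with a sum of 117 to 1489 CPM. In Tnfr2-/- untreated this sum was 1489 CPM, above the 542 CPM of the other epithelial classes there, with Car1 at 872 and Saa1 at 327 CPM. In each of the other libraries it was below that of the other epithelial classes. Clca1 was at 0 in every library among 10 goblet and deep secretory markers, whose sum was 416 to 812 CPM, against 2391 to 7761 CPM in the other epithelial classes. The part of these other markers in the results below was not tested.

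**Figure D1:**
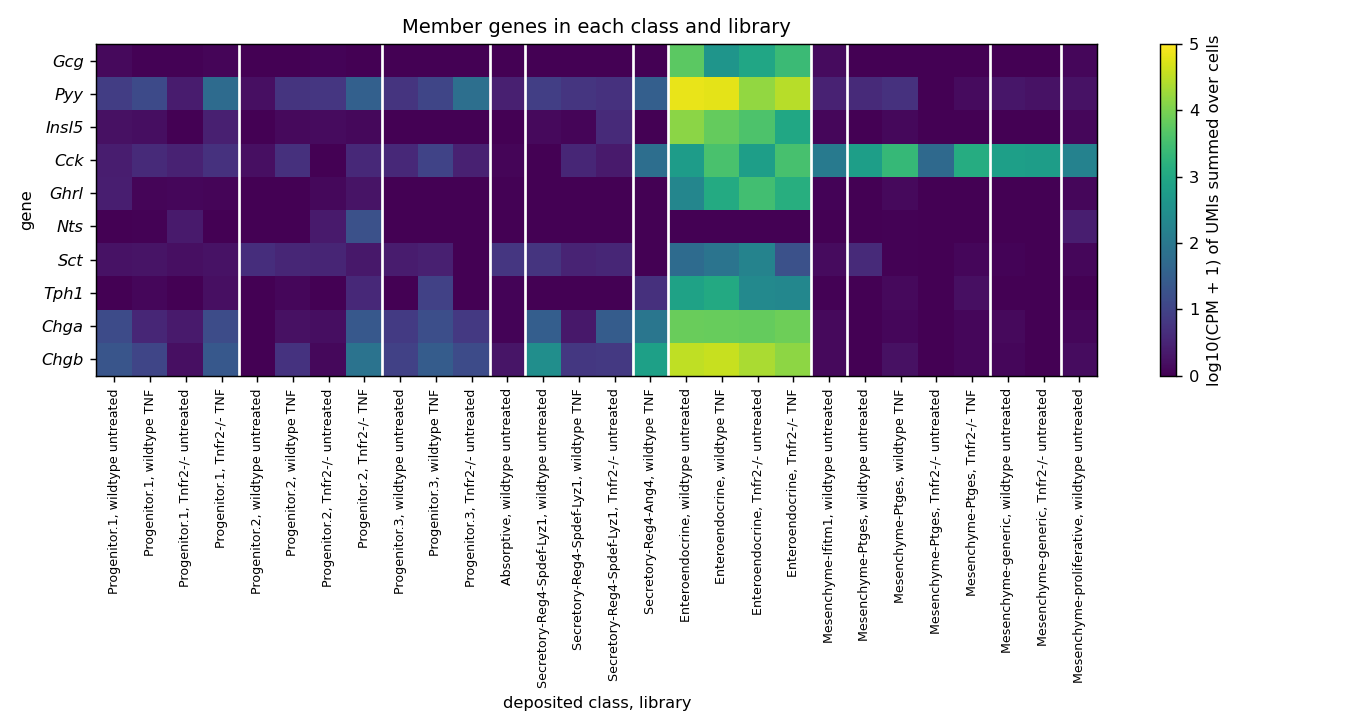
Level of each member gene, as log10(CPM + 1) of UMIs summed over cells, in each deposited class and library with at least 20 cells and in all 4 libraries of the Enteroendocrine class. The Enteroendocrine columns stand out for every member but Nts and Cck, and Cck is above 100 CPM in most mesenchymal columns as well, up to 2260 CPM.

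Over all libraries, the Enteroendocrine class held 99.6% of all Gcg UMIs, 99.6% of Insl5, 98.2% of Pyy, 97.3% of Ghrl, 93.6% of Chgb, 92.7% of Tph1 and 92.1% of Chga. Sct, Cck and Nts departed from this pattern. Sct had 41.8% of its 509 UMIs in the class, Cck had 10.2% of its 55141 UMIs there and 89.0% in mesenchyme, and Nts had none of its 619 UMIs there. The 10 members together made up 12.9%, 12.0%, 5.43% and 5.95% of all UMIs of the class.

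Chga and Chgb encode chromogranins, acidic proteins of the secretory granule. Chga was at 7068, 6989, 6521 and 7772 CPM in the class, the narrowest range among the members, and 104 of 109 cells held at least 3 UMIs of it. Chgb was at 32858, 37331, 23441 and 14148 CPM, lowest in the Tnfr2-/- TNF library, and 89 of 109 cells held at least 3 UMIs. In the Tnfr2-/- untreated library 1 cell carried 7565 of the 12847 Chgb UMIs, and without it the level there was 10418 CPM. Over 27 class sums of at least 20 cells, the genes whose log2(CPM + 1) ran closest to that of Chga were Chgb (r = 0.976), Neurod1 (0.963), Pcsk1n (0.953), Gfra3 (0.95) and Rimbp2 (0.946), of 10113 genes compared. This is a description: the sums share libraries, and 3 of them are Enteroendocrine sums.

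Gcg, Pyy and Insl5 encode the peptides of L cells. Pyy was at 68418, 62479, 15387 and 28981 CPM. The wildtype libraries were high and the Tnfr2-/- libraries low. The cell with the most Pyy held 14250, 16444, 3274 and 7973 UMIs, which was 31.8%, 30.3%, 38.8% and 56.4% of the class's Pyy, and 43 of 109 cells held at least 3 UMIs. Insl5 was at 13371, 6523, 3979 and 958 CPM and was detected at 3 UMIs in 22 cells, 7, 8, 5 and 2 by library. Gcg was at 5606, 401, 896 and 2520 CPM, high in wildtype untreated and low in wildtype TNF, and was detected at 3 UMIs in 13 cells, 6, 4, 2 and 1 by library. A single cell decided several of these values. In Tnfr2-/- TNF 1 cell held 1228 of 1229 Gcg UMIs and 464 of 467 Insl5 UMIs, and in Tnfr2-/- untreated 1 cell held 477 of 491 Gcg UMIs. Without the top cell of each gene, Gcg was at 2639, 250, 27.4 and 2.26 CPM and Insl5 at 9747, 4528, 2327 and 6.77 CPM.

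Cck encodes cholecystokinin, which slows gastric emptying and drives gallbladder contraction, and in the gut it is best known from the small intestine. In the class it was at 584, 3637, 626 and 3507 CPM, and both TNF libraries were high. At least 3 UMIs were found in 51 of 109 cells, 10, 15, 9 and 17 by library. There were at least 2189 Cck UMIs for each 1000 UMIs of the 10 mesenchymal markers in every Enteroendocrine sum, against 15.1, 168, 22.0 and 92.3 in mesenchyme. The 51 cells had a median of 13 Cck UMIs, and the part of mesenchymal RNA in single cells was not tested. In wildtype TNF 1 cell held 2080 of 3164 Cck UMIs and in Tnfr2-/- TNF 1 cell held 1237 of 1710. Without the top cells Cck was at 283, 1339, 445 and 1068 CPM, with the TNF libraries still the higher ones.

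Ghrl encodes ghrelin, a hunger hormone made mostly in the stomach. It was at 195, 1159, 3029 and 1378 CPM in the class, lowest in wildtype untreated and highest in Tnfr2-/- untreated, where 1 cell held 1325 of 1660 UMIs. Without the top cells it was at 82.5, 405, 643 and 551 CPM. Sct encodes secretin, which stimulates bicarbonate secretion and is also found at low level across many Enteroendocrine cells. It was at 54.9, 83.9, 175 and 16.4 CPM, and without the top cells at 34.6, 70.0, 45.1 and 8.68 CPM. No cell held more than 73 UMIs of Sct. After thinning each cell to 5000 UMIs, Sct was found in 0 of 31, 7 of 29, 3 of 18 and 3 of 27 cells of the class, against 1.14%, 0.592%, 0.823% and 0.488% of the other epithelial cells.

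Tph1 encodes tryptophan hydroxylase 1, the rate-limiting enzyme of serotonin synthesis in the gut. It was at 768, 1090, 223 and 201 CPM in the class, high in the wildtype libraries and low in the Tnfr2-/- libraries. At least 3 UMIs were found in 11 of 33, 19 of 31, 3 of 18 and 6 of 27 cells, or 33.3%, 61.3%, 16.7% and 22.2%, with intervals of 18.0% to 51.8%, 42.2% to 78.2%, 3.58% to 41.4% and 8.62% to 42.3%. After thinning to 5000 UMIs, a Tph1 UMI was found in 45.2%, 62.1%, 33.3% and 22.2% of the class and in 0%, 0.336%, 0% and 0% of mesenchymal cells, where median depths were 22643, 48633, 24549 and 37645 UMIs. In contrast to Tph1, Nts was not seen in the class. Nts encodes neurotensin, a product of N cells, and 0 UMIs in sums of 655879, 869967, 548069 and 487637 UMIs allow levels of up to 4.57, 3.45, 5.47 and 6.15 CPM (3 counts).

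**Figure D2:**
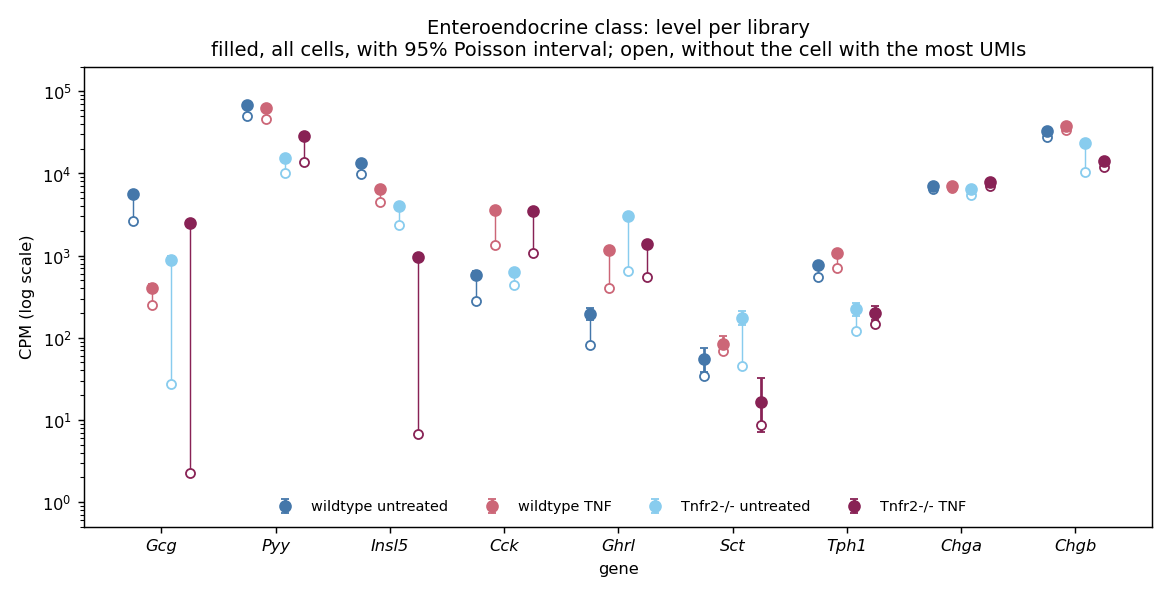
CPM of 9 members in the Enteroendocrine class on a log axis, 1 colour per library, with 95% Poisson intervals (filled) and with the cell holding the most UMIs of that gene left out (open). Chga lies between 6521 and 7772 CPM in the 4 libraries, while Gcg in Tnfr2-/- TNF drops from 2520 to 2.26 CPM without 1 cell.

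The next question was which hormones shared a cell. A hormone gene, Tph1 included, was counted in a cell at 3 UMIs or more. Of the 109 cells, 25 held none of the 8 hormone genes, 35 held 1, 17 held 2 and 32 held 3 or more. Cells with 2 or more thus made up 45.0% (interval 35.4% to 54.8%) and were 13 of 33, 17 of 31, 8 of 18 and 11 of 27 by library. The most frequent sets were Tph1 alone in 20 cells, Cck alone in 12, Cck with Tph1 in 6, and Gcg, Pyy, Insl5, Cck, Ghrl and Sct together in 5 cells, 2 of wildtype untreated, 2 of wildtype TNF and 1 of Tnfr2-/- untreated. Cells with 2 or more had a median of 26791 UMIs and the others 15968, and the part of depth in the counts of hormones per cell was not tested beyond thinning: with every cell at 5000 UMIs and a hormone counted at 1 UMI, 49.5% held 2 or more.

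The L-cell peptides shared cells. All 13 cells with Gcg also held Pyy, with a median of 6291 Pyy UMIs, and all 22 cells with Insl5 held Pyy. Of the 13 Gcg cells 12 held Insl5, 11 held Cck, 9 held Sct and 7 held Ghrl. In the other direction, 13 of the 43 Pyy cells held Gcg, 22 held Insl5 and 32 held Cck. Ghrl fell largely among the same cells: 15 of 17 Ghrl cells held Pyy and 12 held Insl5. Tph1 was apart from Gcg and Insl5. Of 39 cells with Tph1, 1 held Gcg, 1 held Insl5 and 1 held Ghrl, although 13 held Pyy and 14 held Cck. Of the 70 cells without Tph1, 12 held Gcg and 21 held Insl5. Cck was shared by both kinds, with 32 of its 51 cells holding Pyy and 14 holding Tph1. Pyy in the Tph1 cells reached at most 1920 UMIs and had a median of 0, against a median of 3384 UMIs in Insl5 cells. A doublet caller, with a doublet rate set at 0.06, marked 47 of 6155 cells (0.764%) and none of the class. Whether a cell with several hormones holds the RNA of more than 1 Enteroendocrine cell was not tested.

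**Figure D3:**
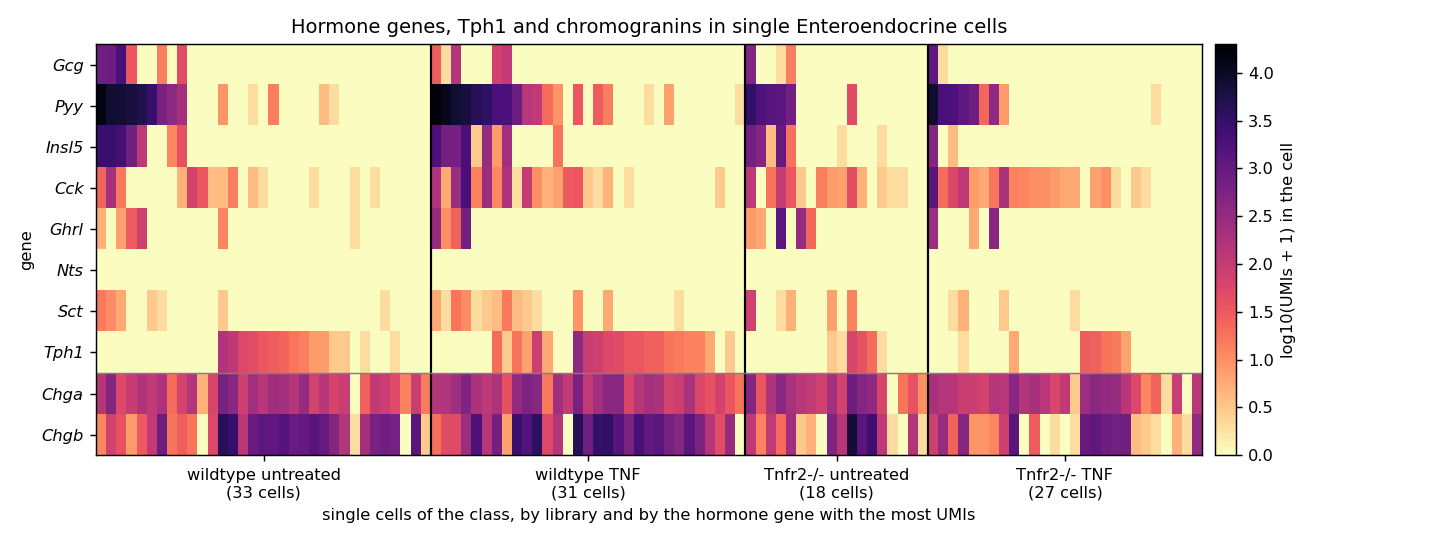
Each column is 1 of the 109 Enteroendocrine cells, ordered by library and by the hormone gene with the most UMIs, and each row is a member, with colour as log10(UMIs + 1). Gcg, Insl5 and most Ghrl lie in the columns dark for Pyy, the Tph1 columns are dark for Chgb, and the Nts row is empty.

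Each cell was then assigned to the hormone gene with the most UMIs in it. UMIs tag 1 end of a transcript and were not divided by length, and no cell had a tie. Tph1 led in 33 cells (11, 14, 3 and 5 by library), Pyy in 32 (9, 12, 5 and 6), Cck in 15 (3, 1, 3 and 8), Ghrl in 3 and Insl5 in 1, and 25 cells (10, 3, 5 and 7) held no hormone gene at 3 UMIs. Tph1 led 33.3%, 45.2%, 16.7% and 18.5% of the class, with intervals of 18.0% to 51.8%, 27.3% to 64.0%, 3.58% to 41.4% and 6.30% to 38.1%, and Cck led 9.09%, 3.23%, 16.7% and 29.6%, with intervals of 1.92% to 24.3%, 0.0816% to 16.7%, 3.58% to 41.4% and 13.8% to 50.2%. The lowest and highest shares of both have intervals that overlap.

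Chgb went with Tph1. Its level was 76767 CPM in cells led by Tph1, 11809 CPM in those led by Pyy, 7248 CPM in those led by Cck and 14325 CPM in those with no hormone gene. Within each library it was higher in the cells led by Tph1 than in those led by Pyy, at 78552 against 4077, 65084 against 25427, 137361 against 1838 and 55550 against 5057 CPM. Chga differed less, at 12092, 5424, 6401 and 3047 CPM. Cells led by Tph1 held no UMI of Gcg or Insl5, which the assignment fixes in part, since it compares the UMIs of these genes. The 1 cell with at least 3 UMIs of Gcg, Insl5 and Tph1 was led by Pyy, with 1920 Pyy and 20 Tph1 UMIs.

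Genes that the assignment did not use also differed between these cells, and are given as description. Of 17 transcription factor genes at 20 CPM in the class, from a list of 19, 7 were at least 2-fold higher in cells led by Tph1 than in those led by Pyy and 3 were at least 2-fold lower. Of all 7823 genes at 20 CPM in the class, 13.7% were at least 2-fold higher with Tph1 and 5.29% with Pyy, which is the background for this and the next lists. Lmx1a, a factor of serotonin cells, was at 132 CPM with Tph1 and 11.4 CPM with Pyy, and at 108 to 155 CPM against 0 to 30.0 CPM within the libraries. Isl1 was at 1.45 against 109 CPM, and Pax6, which acts on the proglucagon promoter, at 7.25 against 57.8 CPM. Within each library Isl1 was higher with Pyy, at 94.5 to 133 CPM against 0 to 4.83 CPM. Neurog3 was at 553 CPM in cells led by Cck and 872 CPM in those with no hormone gene, against 28.9 CPM with Pyy and 7.25 CPM with Tph1. Neurod1, its target, was spread more evenly, at 298 CPM with Pyy, 488 with Tph1, 881 with Cck and 700 with none.

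**Figure D4:**
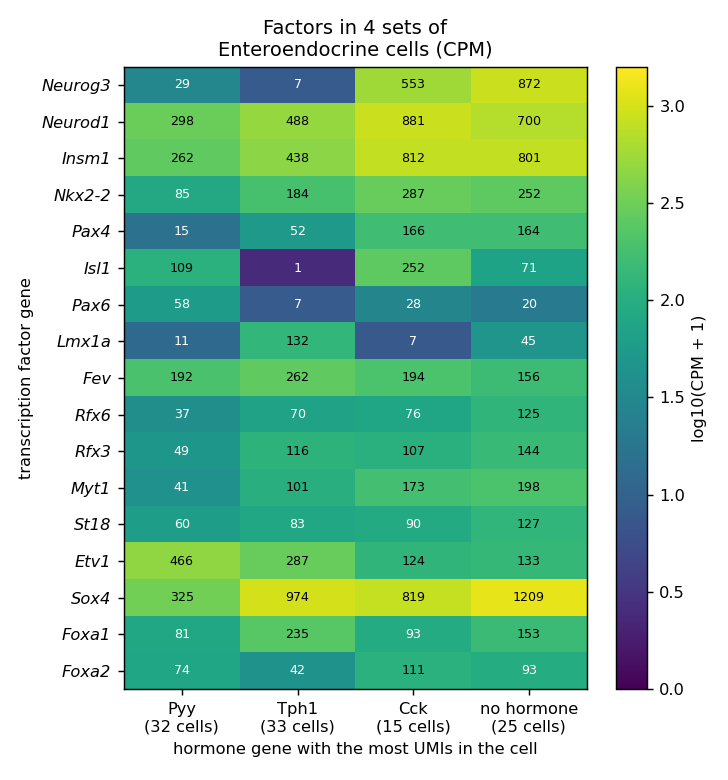
CPM of 17 transcription factor genes in Enteroendocrine cells grouped by the hormone gene with the most UMIs, over all libraries, with colour as log10(CPM + 1). Neurog3 is at 553 and 872 CPM in the 2 right columns and at 28.9 and 7.25 CPM in the 2 left ones.

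Serotonin handling and granule genes were read in the same way. Of 9 serotonin genes at 20 CPM, from a list of 12, Ddc, Slc18a1, Qdpr and Slc7a5 were at least 2-fold higher with Tph1, 4 of 9 beside 13.7% of all genes. Ddc, which makes serotonin from the product of Tph1, was at 1281 CPM with Tph1 and 359 with Pyy, and Slc18a1, which loads amines into granules, at 388 and 76.2 CPM. Maoa, which breaks serotonin down, was lower over all libraries, at 21.7 against 70.0 CPM. By library it was at 38.7, 12.4, 12.0 and 25.7 against 43.2, 46.1, 182 and 0 CPM, so higher with Tph1 in Tnfr2-/- TNF. Slc7a5 was at 87.0 against 32.4 CPM over all libraries. In both Tnfr2-/- libraries Slc7a5 was lower with Tph1, at 24.0 against 45.6 and 25.7 against 29.9 CPM. Tac1, the gene of substance P, was at 1383 against 135 CPM, and in the cells led by Tph1 at 2045, 1350, 1117 and 38.6 CPM by library. Of 19 granule and processing genes, Pcsk1n, Snap25, Cplx2, Rab3c and Cadps were at least 2-fold higher with Tph1, 5 of 19 beside 13.7% of all genes, and Scg2 (780 against 2124 CPM) and Scgn (17.4 against 160 CPM) were lower, 2 of 19 beside 5.29%.

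The libraries cover both genotypes, each with and without TNF, so each member was compared between libraries. A gene was past the fold at a difference of at least 1 in log2(CPM + 1), which is 2-fold, with 20 CPM in at least 1 library of the pair, and Nts was not tested. The number after ± is the 95% counting half-width. Each library stands in 2 of the 4 comparisons. In wildtype, TNF went with higher Cck (2.64 ± 0.15) and Ghrl (2.56 ± 0.27), and with lower Gcg (-3.80 ± 0.16) and Insl5 (-1.04 ± 0.05). Insl5 was under 2-fold with cells weighted equally (-0.64) and with the 22 further cells with 4 markers described below (-0.37). That is 2 of 9 members higher and 2 lower, where 4.13% of 6902 genes were higher and 1.85% lower. Chga (-0.02), Pyy (-0.13), Chgb (0.18), Tph1 (0.50) and Sct (0.60) did not pass. The median over the 9 members was 0.18, beside 0.05 over all genes.

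In Tnfr2-/-, TNF went with higher Cck (2.48 ± 0.17) and Gcg (1.49 ± 0.15), 2 of 9 members where 6.64% of 7279 genes were higher. Insl5 (-2.05 ± 0.14), Ghrl (-1.14 ± 0.13) and Sct (-3.34 ± 1.04) were lower, 3 of 9 where 9.2% of genes were lower. Cck was past 2-fold in both genotypes, also without the top cell of each library, at 2.24 in wildtype and 1.26 in Tnfr2-/-. Gcg turned over without the top cells, to -3.13, and Ghrl was under 2-fold, at -0.22. The median over the members was -0.15, beside -0.09 over all genes.

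Between the untreated libraries, Tnfr2-/- was lower in Gcg (-2.64 ± 0.14), Pyy (-2.15 ± 0.03), Insl5 (-1.75 ± 0.07) and Tph1 (-1.78 ± 0.29), 4 of 9 members where 5.18% of 7196 genes were lower. Ghrl (3.95 ± 0.26) and Sct (1.66 ± 0.55) were higher, 2 of 9 where 9.37% were higher. The Sct difference was 0.37 without the top cells. Between the TNF libraries, Tnfr2-/- was lower in Pyy (-1.11 ± 0.03), Insl5 (-2.77 ± 0.14), Sct (-2.29 ± 1.05), Tph1 (-2.43 ± 0.30) and Chgb (-1.40 ± 0.04), 5 of 9 where 9.09% of 7182 genes were lower. Gcg (2.65 ± 0.17) was the 1 member higher, where 7.55% were, and it stood at -6.27 without the top cells. Pyy, Insl5 and Tph1 were past 2-fold lower at both treatments, with and without the top cells, but Insl5 was at -0.81 untreated when cells were weighted equally (mean of the CPM of each cell). The medians over the members were -0.49 and -1.11, beside 0.11 and -0.04 over all genes. Both the number of cells led by a gene and its level within them went into these sums. Cells led by Tph1 were 33.3%, 45.2%, 16.7% and 18.5% of the class, and Tph1 within them was at 2407, 2511, 1418 and 1184 CPM, lower in Tnfr2-/- in both measures. Cells led by Pyy were 27.3%, 38.7%, 27.8% and 22.2%, about the same share in both untreated libraries, and Pyy within them was at 161381, 125138, 31837 and 82204 CPM. The Tnfr2-/- untreated value is from 5 cells. Of these, 1 with 77925 UMIs held 702 Pyy UMIs and another with 78158 UMIs held 1341. The absorptive genes Car1 and Saa1 were at 1811 and 680 CPM in these 5 cells, and their part in the Pyy level was not tested.

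Of all genes in the class, 4.13% were past 2-fold higher and 1.85% lower with TNF in wildtype, and 6.64% and 9.2% in Tnfr2-/-. In Tnfr2-/- against wildtype, 9.37% were higher and 5.18% lower untreated, and 7.55% and 9.09% with TNF. These shares are the background for each list here. Of 17 transcription factors tested with TNF, none was past 2-fold higher in either genotype, Neurog3 and Isl1 were lower in wildtype and Pax6 was lower in Tnfr2-/-, and the list's medians were 0.13 and -0.24. Between genotypes Foxa2 was higher and Lmx1a lower in Tnfr2-/- untreated, and Neurog3, Isl1 and Foxa2 were higher and Pax4 and Pax6 lower with TNF, with medians of 0.30 and 0.12. Neurog3 was at 212, 71.3, 336 and 254 CPM in the class. Of the granule and processing genes, Rab3c of 19 was lower in wildtype, and Scgn and Ptprn of 17 were lower in Tnfr2-/-. Between genotypes, 8 of 19 were lower in Tnfr2-/- untreated (Pcsk1, Pam, Scg3, Scg5, Resp18, Ptprn, Rab3c and Cadps) and Scg2 was higher, and 6 of 19 (Pcsk1n, Pam, Scg3, Resp18, Ptprn and Cadps) were lower with TNF, with medians of -0.75 and -0.57 beside 0.11 and -0.04 over all genes. Pam, which amidates peptides such as peptide YY and cholecystokinin, was at 630, 402, 162 and 135 CPM, and Resp18 at 181, 243, 3.65 and 16.4 CPM. Resp18 and Cadps in Tnfr2-/- untreated, each at 3.65 CPM, were under the 5.47 CPM of 3 counts. Ptprn in Tnfr2-/- TNF, at 4.10 CPM, was under the 6.15 CPM of 3 counts. Pcsk1, which cuts prohormones, was at 293, 297, 126 and 199 CPM. Of 9 serotonin genes, none was past 2-fold with TNF in wildtype, and Slc18a1 was higher and Maoa and Pts were lower in Tnfr2-/-. Between genotypes Maoa was higher and Qdpr lower in Tnfr2-/- untreated. Ddc, at 831, 864, 498 and 273 CPM, was lower in Tnfr2-/- with TNF, as were Maoa, Pts and Pcbd1, while Slc18a1 was higher, and the medians of the list were -0.55 untreated and -0.76 with TNF. Of 20 receptor genes for the members, Sort1 alone reached 20 CPM, at 44.2, 57.5, 42.0 and 18.5 CPM.

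Over all epithelial cells, where the number of Enteroendocrine cells and the RNA in each cannot be told apart, TNF went in wildtype with 3 of 8 members higher (Cck, Ghrl and Tph1, beside 2.54% of genes) and 1 lower (Gcg, beside 1.08%). In Tnfr2-/- 3 of 7 were higher with TNF (Gcg, Pyy and Cck, beside 5.55%) and 1 was lower (Insl5, beside 7.81%). Tnfr2-/- had 1 of 6 higher (Ghrl, beside 2.42%) and 3 lower (Gcg, Pyy and Insl5, beside 3.59%) untreated, and 1 of 8 higher (Gcg, beside 5.04%) and 4 lower (Pyy, Insl5, Tph1 and Chgb, beside 6.37%) with TNF. Epithelial Cck was at 8.58, 80.6, 8.31 and 45.8 CPM and epithelial Tph1 at 10.1, 23.5, 2.43 and 4.85 CPM.

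Outside the class, Enteroendocrine markers were found in few cells. At least 4 of the 10 markers were present in 22 further cells, 7, 2, 4 and 9 by library, 7 of them in the class Progenitor.2 of Tnfr2-/- TNF. Progenitor.2 made up 716 of the 831 epithelial cells outside the Enteroendocrine class in that library. Chga reached 3 UMIs in 19 of the 22, Chgb in 12, Cck in 8, Pyy in 6 and Tph1 in 2, and no Gcg UMI was seen in them. Among them, 1 Progenitor.2 cell of Tnfr2-/- TNF held 1696 Chgb, 295 Chga and 64 Tph1 UMIs, and another held 937 Pyy UMIs. The class Secretory-Reg4-Ang4, found in wildtype TNF alone with 246 cells, had Chgb at 693 CPM (interval 622 to 769), Chga at 90.3 CPM and Cck at 62.8 CPM. In 1 of its cells, of 1475 UMIs, lay 96 of its 353 Chgb UMIs. Mesenchymal markers summed to 1415 CPM there, against 1.88 to 31.0 CPM in the other epithelial sums outside the Enteroendocrine class, and there were 44.4 Cck UMIs for each 1000 marker UMIs, against 168 in wildtype TNF mesenchyme, and their part in these levels was not tested. In Secretory-Reg4-Spdef-Lyz1 of wildtype untreated, 835 of 836 Chgb UMIs were in 1 cell.

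Nts was found in cells of other classes. The libraries held 7, 2, 59 and 551 Nts UMIs, with the higher counts in the Tnfr2-/- libraries, in 1, 2, 4 and 8 cells. The 7 UMIs of wildtype untreated were in 1 Mesenchyme-proliferative cell, and those of the Tnfr2-/- libraries were all in Progenitor.1 and Progenitor.2 cells. In Tnfr2-/- TNF 465 of the 551 were in 1 Progenitor.2 cell of 206990 UMIs that carried 1 of the 10 markers, and in Tnfr2-/- untreated 42 of 59 were in 1 Progenitor.1 cell. Nts in the other epithelial classes was at 0, 0.0247, 1.18 and 14.0 CPM, and no Nts cell carried more than 1 marker.

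Cck in mesenchyme was the largest pool of any member outside the class. All 10 fixed mesenchymal markers, among them the collagen genes Col1a1 and Col3a1, were above 0 in these cells in every library. Their Cck was at 265, 2246, 389 and 1250 CPM, with intervals of 260 to 271, 2222 to 2271, 363 to 416 and 1219 to 1282. Both TNF libraries were high. The difference with TNF was 3.08 in wildtype, rank 48 among 6683 genes, of which 6.03% were past 2-fold higher, and 1.68 in Tnfr2-/-, rank 146 among 6354 genes, of which 5.71% were. Tnfr2-/- minus wildtype was 0.55 untreated and -0.84 with TNF, neither past 2-fold. In Tnfr2-/- untreated 1 cell held 393 of 846 UMIs, and without the top cell of each library the untreated difference was -0.23 and the TNF difference in Tnfr2-/- was 2.43.

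Few mesenchymal cells carried most of the Cck. Cells without a Cck UMI made up 64.7%, 41.2%, 65.6% and 34.4%, and cells with at least 100 UMIs made up 1.12% (0.641% to 1.81%), 24.5% (19.8% to 29.7%), 2.22% (0.270% to 7.80%) and 11.5% (6.42% to 18.5%). In wildtype, on 1430 and 306 cells, the interval with TNF lies above the untreated one, and in Tnfr2-/-, on 90 and 122 cells, the 2 intervals overlap. These intervals cover the counting of cells within 1 library each and not the spread between libraries, and the cells were not thinned for them. The tenth of cells with the most Cck held 82.6%, 66.0%, 90.7% and 56.0% of the UMIs, and the highest cell held 501, 1531, 393 and 525. The TNF libraries were deeper, with median mesenchymal cells of 48633 and 37645 UMIs against 22643 and 24549, and after thinning to 5000 UMIs a Cck UMI was found in 25.3%, 46.3%, 20.9% and 56.7% of cells. In other epithelial cells, the background for this, it was found in 0.285%, 1.90%, 0.206% and 1.47%, at median depths of 37611, 30693, 41228 and 37821 UMIs.

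The mesenchymal class moved with treatment. Of the TNF cells, 304 of 306 and 122 of 122 were in Mesenchyme-Ptges, named by the authors for a prostaglandin synthase, while the untreated ones were spread over Mesenchyme-Ifitm1 (892 cells of wildtype), Mesenchyme-generic (393 and 51) and others. Untreated Mesenchyme-generic had Cck at 674 CPM in wildtype and 614 CPM in Tnfr2-/-, Mesenchyme-Ifitm1 at 107 CPM and Mesenchyme-proliferative at 162 CPM. Within Mesenchyme-Ptges Cck was at 625, 2260, 49.2 and 1250 CPM, on 34, 304, 37 and 122 cells. In wildtype untreated 181 of those 214 UMIs were in 1 cell, and 30 of 34 cells had none. The genes whose levels ran closest to Cck over the 27 class sums were Cacna2d1 (r = 0.946), Ccdc136 (0.932), Dlg4 (0.932), Gdf11 (0.931) and Nf1 (0.925), and Chga was at 0.309.

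**Figure D5:**
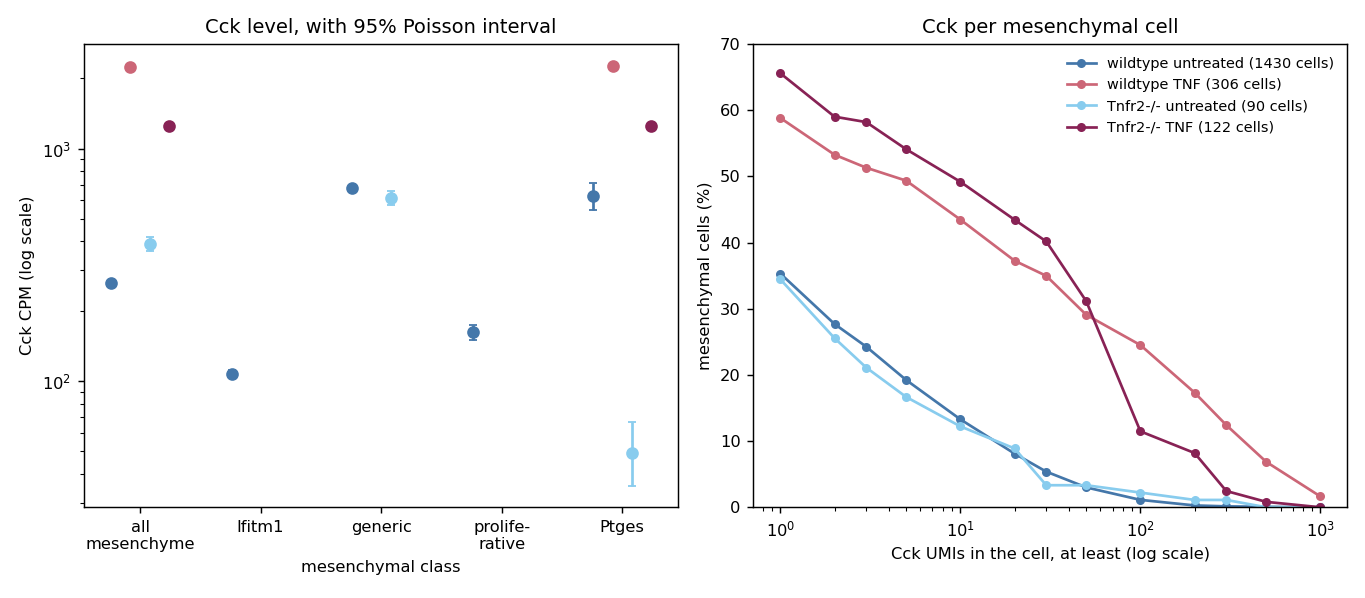
Left, Cck CPM (log axis) in all mesenchymal cells and in each mesenchymal class with at least 20 cells, 1 colour per library as in the right panel, with 95% Poisson intervals. Right, percent of mesenchymal cells with at least a given number of Cck UMIs, without thinning, where the TNF lines run above the untreated ones up to 500 UMIs, with 24.5% and 11.5% against 1.12% and 2.22% of cells at 100 UMIs.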

How the data were processed

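Per the labels and the methods, the authors obtained UMI counts with Cell Ranger (5.0.0 and mm10 in the submitters' processing notes), removed cells under 100 UMIs and epithelial-mesenchymal doublets, and named classes from Leiden clusters in monocle3. The deposited matrix holds raw UMI counts, and its cell and gene tables give the library, class and symbol. Clustering followed log normalization, principal components and UMAP. A size factor per cell, a score that the authors deposited, was read to check that it follows the UMI total. For each class and library, UMIs were added up and scaled to the total of its cells (CPM). Differences are on the log2(CPM + 1) scale, which understates changes of low genes. The labels give 1 library per group, so intervals cover counting error only. Cells were thinned to 5000 UMIs for shares of cells, which left out 405 cells, 4 of them Enteroendocrine. Doublets were called with scrublet in scanpy 1.11.5, and other code ran in Python 3.11.15 and R 4.3.3. Size factors for the alternatives came from edgeR 4.0.16 and DESeq2 1.42.0, with no model fitted. The fold calls, thinning and intervals were checked on simulated data. The named genes are the members, the fixed lists of factors, granule, hormone, serotonin, receptor and sensor genes that reach 20 CPM in the class, and for Chga and Cck the 5 genes most like each. The members and lists were chosen with earlier results of these data known. Alternatives were other pseudocounts, scalings, minima, depths, hormone thresholds and cell sets, 1 of them chosen after seeing the data. 1 listed factor is not reported here.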

Additional observations from a re-analysis of the deposited data

Results flagged for a closer look

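Gcg and Ghrl differed with TNF in opposite directions in the 2 genotypes of the Enteroendocrine class, and this difference was not tested, since each group is 1 library. For Gcg, TNF minus untreated was -3.80 in wildtype and 1.49 in Tnfr2-/-, on 6, 4, 2 and 1 cells with at least 3 UMIs, and the Tnfr2-/- value rests on 1 cell with 1228 of 1229 UMIs. For Ghrl it was 2.56 in wildtype and -1.14 in Tnfr2-/-, on 5, 4, 5 and 3 cells, and 1325 of the 1660 UMIs of Tnfr2-/- untreated were in 1 cell. Cells that the deposited annotation leaves without a class, 31 of wildtype untreated and 4 of Tnfr2-/- untreated, held 37 and 14 Cck UMIs, at 17.6 and 39.7 CPM. These cells were in no comparison of a member between libraries, but they were part of the totals over all cells.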

How the results depend on the processing

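No paired analysis was possible because each group has 1 library and the labels give no replicate numbers. The 21 member differences past 2-fold in the Enteroendocrine class were also past it under each pseudocount, under edgeR and DESeq2 scaling, with cells of at least 2000 UMIs and under each CPM minimum. With the mean of the CPM of each cell, 4 were lost: 1 member was lower with TNF in wildtype, 1 was higher with TNF in Tnfr2-/-, and 0 were higher in Tnfr2-/- with TNF. With the 22 further cells of 4 markers, 4 members were higher and 1 was lower with TNF in wildtype, and 1 was higher in Tnfr2-/-. Without the top cells, 1 was higher with TNF in Tnfr2-/-, 1 higher in Tnfr2-/- untreated and 0 higher in Tnfr2-/- with TNF, and Gcg turned over, to -3.13 for TNF in Tnfr2-/- and -6.27 for Tnfr2-/- with TNF.

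In the epithelium without the Enteroendocrine class, 0 members were higher and 0 lower with TNF in wildtype, 3 higher (Pyy at 3.21, Chga at 2.72 and Chgb at 5.26, in place of Gcg, Pyy and Cck) and 0 lower with TNF in Tnfr2-/-, 0 higher and 1 lower (Chgb) in Tnfr2-/- untreated, and 3 higher (Pyy, Chga and Chgb) and 0 lower in Tnfr2-/- with TNF. Of all genes, 346 of 6128 were higher with TNF in Tnfr2-/-. Tnfr2-/- was lower in 217 of 6001 genes untreated and higher in 310 of 6044 with TNF. In Tnfr2-/- TNF, 1 of the 22 cells with 4 markers held 937 of these 1389 Pyy UMIs. Another held 1696 of 2843 Chgb UMIs, and in wildtype untreated 1 cell held 835 of 1412. Without the class, Ghrl was at -0.84 with TNF in wildtype and -0.64 in Tnfr2-/- untreated, Gcg at -0.048 and Insl5 at 0.26 with TNF in Tnfr2-/-, and Pyy at 1.93, Insl5 at 0.11, Tph1 at 1.12 and Chgb at 2.05 in Tnfr2-/- with TNF, each turned from its sign with the class included. Of these members, only Pyy and Chgb reached 20 CPM without the class. In Tnfr2-/-, Gcg had 3 UMIs untreated and 1 with TNF, with a half-width of 3.27, and Insl5 had 12 and 19. Ghrl had 3 UMIs in wildtype TNF. Of the 95 Tph1 UMIs of Tnfr2-/- TNF, 64 were in 1 of the 22 cells with 4 markers and 26 in another. The CPM minimum was varied over all epithelial cells, with the Enteroendocrine class included. At a 50 CPM minimum, 1 member was higher with TNF in wildtype, 1 higher and 0 lower with TNF in Tnfr2-/-, and 0 higher in Tnfr2-/- against wildtype at either treatment. With no minimum, 2 were higher in Tnfr2-/- against wildtype at each treatment.

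Cck in mesenchyme stayed past 2-fold with TNF in both genotypes. In wildtype it was 3.04 with a pseudocount of 10, 3.13 with edgeR and 3.12 with DESeq2 factors, 1.85 in Mesenchyme-Ptges alone and 3.36 without the 1% of cells with most Cck. In Tnfr2-/- it was 1.83 and 1.84 with these factors, 4.64 in Mesenchyme-Ptges, 2.20 with the mean of each cell, 2.35 without the 1% and 2.43 without the top cell, a choice made after seeing the data. Tnfr2-/- untreated minus wildtype was -3.64 in Mesenchyme-Ptges, 0.071 with the mean of each cell, 0.21 without the 1% and -0.23 without the top cell. With TNF it was -0.71 and -0.67 with the factors, -0.79, -0.80 and -0.90 in the last 3. The share of mesenchymal cells with a Cck UMI was 35.3%, 58.8% and 34.4% without thinning in the first 3 libraries, and 15.5% in wildtype untreated and 44.3% in Tnfr2-/- TNF at 2000 UMIs. Enteroendocrine cells with 2 or more hormones were 57.8% at 1 UMI and 33.0% at 10 UMIs. The causes were not tested. With 18 to 33 Enteroendocrine cells a library, shares have wide intervals.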

Other observations

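The sensor genes of these cells were not described above. Of 14 such genes, 5 reached 20 CPM in the class. Olfr78, an olfactory-type receptor for short-chain fatty acids, was at 363, 492, 0 and 8.20 CPM. Both wildtype libraries were high and both Tnfr2-/- libraries were near 0, where 3 counts are 5.47 and 6.15 CPM. In wildtype it was seen both in the cells led by Pyy, at 543 and 247 CPM, and in those led by Tph1, at 343 and 990 CPM, and in Tnfr2-/- at 0 and 5.97 CPM with Pyy and at 0 in both with Tph1. Olfr558 was at 12.2, 39.1, 0 and 0 CPM. Ffar2, another receptor for short-chain fatty acids, was at 206, 361, 153 and 148 CPM. Past 2-fold, Olfr558 was higher with TNF in wildtype, no sensor of 2 tested was with TNF in Tnfr2-/-, Olfr78 and Piezo2 of 4 were lower and Abcc8 was higher in Tnfr2-/- untreated, and Olfr78, Olfr558 and Ffar2 of 4 were lower in Tnfr2-/- with TNF. Of all genes, 4.13% were higher with TNF in wildtype. In Tnfr2-/- against wildtype, 5.18% were lower and 9.37% higher untreated, and 9.09% lower with TNF. Olfr558 had 42 UMIs in 6 cells of the class, and Piezo2 had 38 UMIs in 15 cells. Of 13 other gut hormone genes in the table, Tac1, Ucn3 and Iapp reached 20 CPM. Iapp, the gene of amylin, was at 7.62, 5.75, 29.2 and 69.7 CPM.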
